A study of Mus musculus with 6 samples.

Results

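The comparison set intravascular macrophages (IVM) against microglia in both genotypes of mice and looked for transcripts that differed the same way in each. Its members are 4 of the 6 sequenced libraries, namely the IVM and microglia (MG) libraries of wild-type (WT) animals and of animals carrying the BRAFV600E mutation (VE, called mutant here), with 1 library for each combination. The other 2 libraries, WT and mutant monocytes, entered the fit and serve as a reference for where each gene lies. All cells were sorted from mice, and full-length cDNA was amplified from very little RNA. The labels give no age, sex, promoter or Cre line, sorting gate, pooling of animals or treatment, so it cannot be said which cells carried the mutation, or whether IVM and microglia of a genotype shared animals. The p-values therefore measure the spread among 6 libraries, and some of that spread may be technical.

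Microglia are the resident macrophages of the brain parenchyma. They arise early in development, renew themselves in place and depend on CSF1 receptor signalling, TGF-beta and transcription factors such as SALL1. Macrophages and monocytes on the vessel wall come from the blood: patrolling monocytes crawl on the endothelium with the integrin LFA-1, depend on the nuclear receptor NR4A1 and carry little Ly6C, whereas classical monocytes carry much Ly6C and CCR2 and enter tissues. BRAFV600E keeps the BRAF kinase, and with it MEK and ERK, active.

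Total counts were 29000457 in WT IVM, 65519506 in mutant IVM, 35418646 in WT microglia and 38852081 in mutant microglia. WT IVM had counts for 15121 genes, the fewest of the 6 libraries, against 20321 to 23214 in the other 3 libraries compared. The WT IVM library also stood apart in markers of T and natural killer cells. All 17 such markers reached 10 CPM (counts relative to library size, adjusted with TMM factors) in it, and their summed level was 6431 CPM, against 4.61 CPM in mutant IVM, 1.23 CPM in WT and 2.12 CPM in mutant microglia. Cd3e, a chain of the T cell receptor complex, was at 319 CPM in WT IVM and at 0.191 CPM in mutant IVM, and Cd8a, the T cell co-receptor, was at 247 CPM in WT IVM and had no count in mutant IVM. Dendritic cell markers summed to 533 and 453 CPM in WT and mutant IVM, against 34.1 and 57.9 CPM in microglia. Border macrophage markers summed to 3290 and 11107 CPM in IVM, 1187 and 4660 CPM in microglia and 3059 and 9977 CPM in monocytes. Their median log2 ratio of IVM to microglia was 0.15 in WT and 3.26 in the mutant. Cd163 and Clec4n, named below, belong to that list, and the part of border macrophages in their values was not tested. Neutrophil markers summed to 134 and 693 CPM in IVM against 483 and 289 CPM in microglia, of which Csf3r, a receptor that other myeloid cells carry too and singled out after its values were seen, made up 111 and 282 CPM in IVM and 479 and 274 CPM in microglia. Without Csf3r the sums were 23.7 and 411 CPM in IVM and 4.25 and 15.2 CPM in microglia. In WT and mutant monocytes the neutrophil markers summed to 2024 and 57627 CPM. Erythroid markers summed to 232 and 10570 CPM in monocytes, and platelet markers to 48.9 and 1792.5 CPM. The mutant monocyte values below may therefore not be those of monocytes alone, which was not tested. The median log2 ratio of the 14 neutrophil markers was 0.91 in WT and 5.37 in the mutant, and 9 had positive ratios in both genotypes. Of the 14, edgeR called 1 higher and none lower, against 1.25% and 0.0411% of all tested genes. In these bulk libraries, fewer cells of a type and less RNA per cell cannot be told apart. Counts of called genes are also given without the WT IVM library for most gene lists described below.

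The microglia label stood up against its markers: P2ry12, Tmem119 and Sall1 were all abundant in both microglia libraries, the lowest value being 215 CPM for Sall1 in the mutant. For IVM no defining marker was available. The IVM libraries held transcripts of patrolling monocytes, as did the monocyte libraries. Csf1r, the CSF1 receptor of the macrophage lineage, was at 1035 and 5001 CPM in WT and mutant IVM. Braf itself was at 45.1 and 24.9 CPM in WT and mutant IVM and at 51.2 and 7.24 CPM in WT and mutant microglia; its total level does not show the mutant allele, so it is no check of genotype.

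The promoters of 3 genes that led the IVM side and of the gene that led the microglia side are shown because these genes came first in their direction, among those with a RefSeq entry, when ranked by the smaller of the ratios in the 2 genotypes. The sequences are RefSeq promoters of build GRCm38.p6, from 250 bases before to 50 bases after the start that RefSeq's table uses, written 5′ to 3′ on the gene's strand. That start is the GENCODE M21 gene start for S1pr5, and lies inside the GENCODE gene by 3 bases for Ace, 174 bases for Gpr84 and 9121 bases for Atp8b4. Capitals mark matches, on either strand, to GAGGAA (the core bound by PU.1, the master factor of myeloid cells), TGACTCA (AP-1) or CAGACA (SMAD).
S1pr5, chr9:21248394-21248693, minus strand: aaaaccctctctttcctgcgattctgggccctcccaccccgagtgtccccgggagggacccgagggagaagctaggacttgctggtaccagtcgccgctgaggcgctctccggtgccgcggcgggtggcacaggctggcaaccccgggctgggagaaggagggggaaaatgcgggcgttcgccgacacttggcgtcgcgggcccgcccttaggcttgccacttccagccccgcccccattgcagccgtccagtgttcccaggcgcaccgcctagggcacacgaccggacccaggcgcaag
Ace, chr11:105967698-105967997, plus strand: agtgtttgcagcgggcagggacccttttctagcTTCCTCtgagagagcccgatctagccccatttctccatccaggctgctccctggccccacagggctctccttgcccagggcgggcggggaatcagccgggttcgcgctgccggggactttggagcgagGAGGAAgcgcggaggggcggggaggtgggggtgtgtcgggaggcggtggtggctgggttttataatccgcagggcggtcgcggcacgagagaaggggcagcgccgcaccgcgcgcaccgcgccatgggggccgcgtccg
Atp8b4, chr2:126491504-126491803, minus strand: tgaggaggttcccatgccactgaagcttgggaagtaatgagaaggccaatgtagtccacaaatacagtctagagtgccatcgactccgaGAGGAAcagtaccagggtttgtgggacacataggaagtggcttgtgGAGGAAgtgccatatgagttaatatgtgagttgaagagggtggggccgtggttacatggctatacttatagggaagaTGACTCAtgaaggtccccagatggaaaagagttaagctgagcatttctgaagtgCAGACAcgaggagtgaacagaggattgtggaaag
Gpr84, chr15:103310389-103310688, minus strand: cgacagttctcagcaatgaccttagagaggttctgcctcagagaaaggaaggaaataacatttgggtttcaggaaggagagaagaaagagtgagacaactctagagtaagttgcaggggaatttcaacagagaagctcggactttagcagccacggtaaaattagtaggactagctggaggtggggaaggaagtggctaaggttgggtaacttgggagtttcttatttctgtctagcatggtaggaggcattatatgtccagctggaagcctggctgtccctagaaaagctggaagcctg
GAGGAA was present in the Ace promoter at positions 162 (plus strand) and 34 (minus strand) and in the Atp8b4 promoter at positions 90 and 136, counted from the first base shown. The Atp8b4 window also held TGACTCA at position 213 and CAGACA at position 267, and the S1pr5 and Gpr84 windows held none of the words searched, which also included AAAGGTCA (NR4A) and GGGCGTGG (KLF). RefSeq gives 2 promoters for Ace, of which 1 is shown. Of 32851 mouse promoters of this length, 28.3% held GAGGAA, 5.20% TGACTCA, 21% CAGACA, 1.51% AAAGGTCA and 5.33% GGGCGTGG. These matches are a description of letters, not binding sites.

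More genes were called higher than lower in IVM by the test, whereas a rule on size alone gave more lower genes. With edgeR's quasi-likelihood test, genotype as a block and Benjamini-Hochberg adjustment at 0.05, 213 of 17023 genes tested were called higher in IVM (1.25%) and 7 lower (0.0411%). At an unadjusted p under 0.05 there were 862 higher and 366 lower, so the imbalance between directions was smaller before adjustment. Of the 213 genes called higher, 180 were also at least 2-fold higher within each genotype, with at least 10 CPM in both IVM libraries. By that size rule alone, with no test, 615 genes were higher (3.61%) and 747 lower (4.39%) in IVM in both genotypes. Scaling by library size alone turned this split to 847 higher and 353 lower. DESeq2's Wald test called 709 higher and 186 lower of the 17023 genes. List counts below are to be read against the counts and shares over all genes in this paragraph. The runs without an IVM library, given next, keep the other IVM library and the microglia libraries by which the 180 were chosen. A second call of the 180 was therefore close to fixed in advance and is no independent support. Without the WT IVM library, 643 of 18953 genes were called higher (3.39%) and 73 lower (0.385%), and all 180 genes named above were called higher again; all 180 were also called without the mutant IVM library, where 2144 of 18726 genes were called higher (11.4%) and 3601 lower (19.2%).

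Beyond this shared set, the ratios from the WT and the mutant libraries differed widely. With 1 library per cell type and genotype, an effect of genotype cannot be told apart from a difference between libraries. The log2 ratio of IVM to microglia had the same sign in both genotypes for 50.3% of tested genes, and its Pearson correlation between genotypes was 0.258 across genes, which are not independent replicates. A further 420 genes were 2-fold higher in WT and 2-fold lower in mutant IVM, and 377 the reverse, at 10 CPM in the higher library. The median log2 ratio over all tested genes was -0.36 in WT and -0.17 in the mutant, and list medians below are to be read against these.

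**Figure D1:**
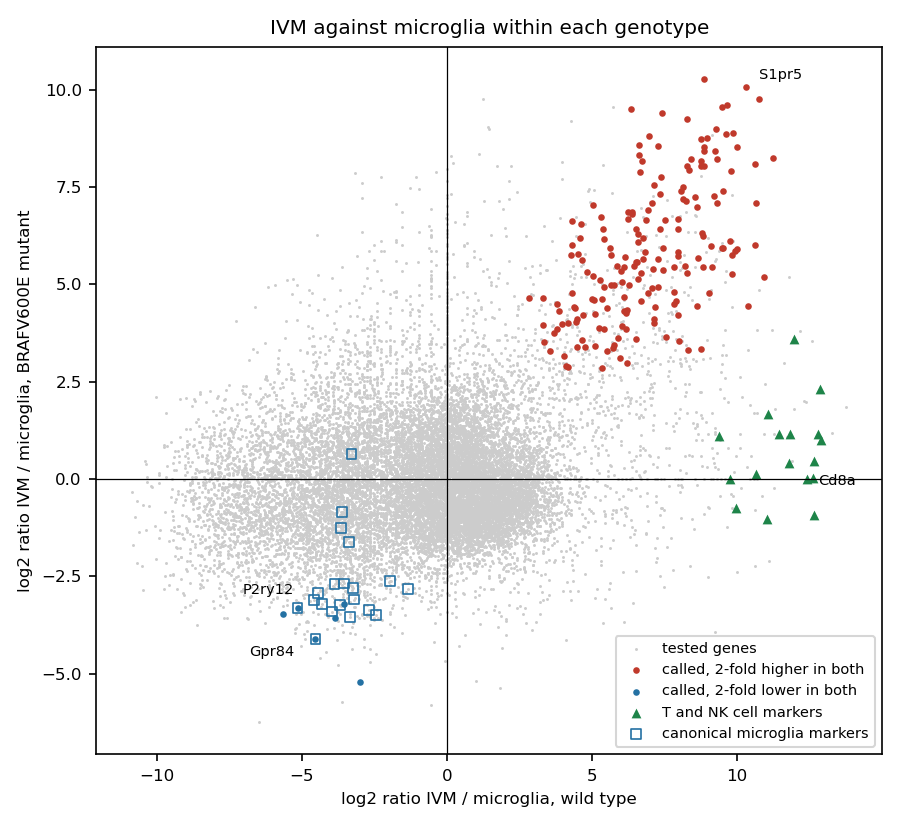
Log2 ratio of IVM to microglia in wild-type mice (x axis) against that in mutant mice (y axis), 1 point per tested gene, from TMM-scaled counts. The 180 genes called and 2-fold higher in both genotypes (red) lie at the upper right, the 6 lower genes (blue) at the lower left, and the T and NK cell markers (green triangles) lie far to the right with mutant ratios near 0.

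S1pr5 led the genes higher in IVM, which were ranked by the smaller of the 2 ratios. It encodes a receptor for sphingosine 1-phosphate that acts when natural killer cells and patrolling monocytes leave the bone marrow, and it lies at chr9:21242912-21248443 on the minus strand (GRCm38, GENCODE M21). S1pr5 was at 139 CPM in WT IVM and 115 CPM in mutant IVM, against 0.0648 CPM (3 counts) and 0.0616 CPM (2 counts) in WT and mutant microglia. Both IVM libraries lay far above both microglia libraries. The ratio was 2156-fold in WT (95% interval 737 to 10457) and 1871-fold in the mutant (518 to 15456), intervals that cover counting error only, with an edgeR adjusted p of 0.0014. T and NK markers summed to 6431 CPM in WT IVM and to 4.61 CPM in mutant IVM, and the part of such cells in the S1pr5 values was not tested.

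Ace, angiotensin-converting enzyme, a surface marker of patrolling monocytes, was at 151 and 227 CPM in WT and mutant IVM, against 0.0432 and 0.216 CPM in microglia. The ratios were 3517-fold (973 to 29051) and 1056-fold (512 to 2626), with an edgeR adjusted p of 0.0014. Itgal, the alpha chain of LFA-1, was at 752 and 611 CPM in IVM against 0.907 and 1.26 CPM in microglia. Treml4, a receptor of patrolling monocytes, was at 298 and 556 CPM against 0.432 and 1.82 CPM. Cd300e, an activating receptor of monocytes, was at 142 and 659 CPM against 0.237 and 1.48 CPM. For these genes the lowest IVM value was more than 10-fold above the highest microglia value, and each had an edgeR adjusted p of 0.0014. Near copies in the CD300 family, and in the Ear, Ly6c and Clec4a families below, can share reads, so their values are less certain.

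Other leading genes came from several functional classes. Atp8b4, a member of the phospholipid flippase family, was at 88.9 and 59.8 CPM in WT and mutant IVM against 0.0648 and 0.0308 CPM in microglia. Trem1, a receptor that amplifies inflammatory signals, was at 32.4 and 127 CPM; WT microglia held no count, and mutant microglia held 4 counts. Trem1 was at least 502-fold higher in WT IVM, taking 3 counts as the floor for the microglia library, and its edgeR adjusted p was 0.0014. Cdh1, E-cadherin, had no count in either microglia library and was at 42.2 and 21.5 CPM in IVM, at least 654-fold and 232-fold higher. Fabp4, a fatty acid carrier, also had no count in either microglia library and was at 19.3 and 19.5 CPM in IVM. Cd163, the receptor for haptoglobin bound to haemoglobin, was at 20.8 and 88.9 CPM in IVM against 0 and 0.216 CPM. Dusp5, a nuclear phosphatase of ERK, was at 119 and 47.4 CPM in IVM against 0.151 and 0.0924 CPM, with an edgeR adjusted p of 0.00158. All of these lay higher in both IVM libraries than in either microglia library, which describes genes chosen for high ratios in these same libraries. The leading genes also included Adamdec1, Ccdc88c, Gpr141 and Krt80.

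**Figure D2:**
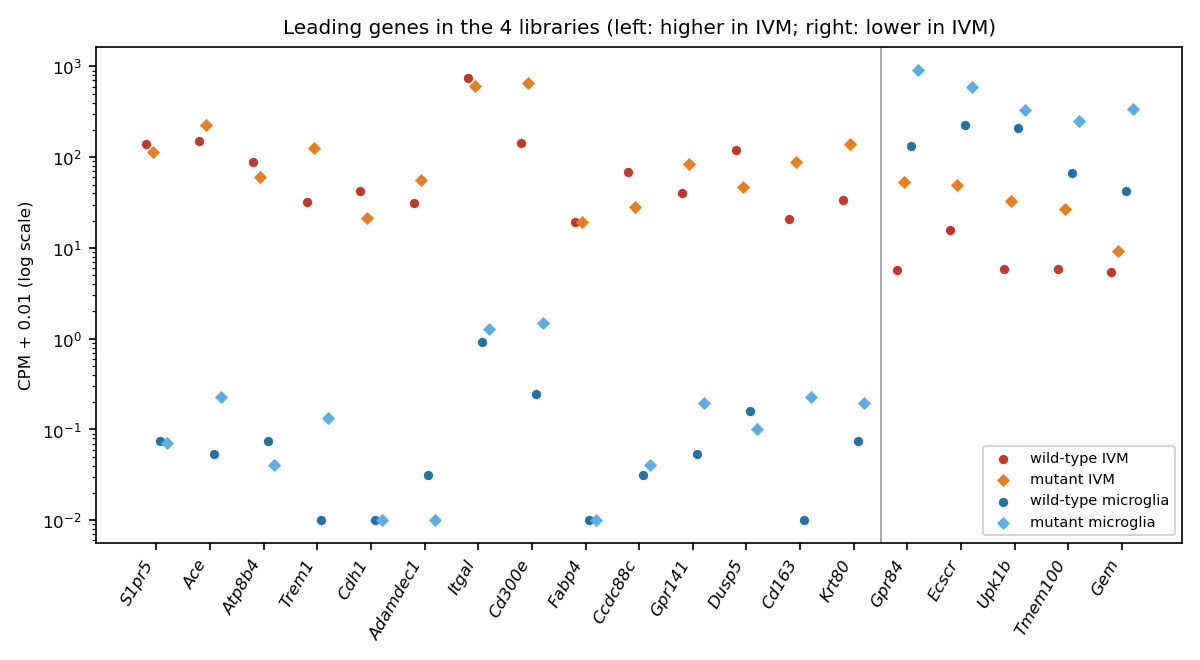
CPM + 0.01 (log axis) of 14 leading genes higher and the 5 leading genes lower in IVM, with 1 point per library: circles wild type, diamonds mutant, red and orange IVM, dark and light blue microglia. The IVM points of S1pr5 (139 and 115 CPM) and of the other genes on the left lie above their microglia points, and the order is turned for the 5 genes on the right.

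Genes of the patrolling monocyte list were higher in IVM than in microglia. Their summed level was 4908 and 6958 CPM in WT and mutant IVM and 527 and 915 CPM in microglia. In WT and mutant monocytes it was 6650 and 8368 CPM, so a high level of this list was not particular to IVM. Of 22 members, all tested, 12 were called higher in IVM and none lower, against 1.25% of all tested genes called higher. The list's median log2 ratio was 5.60 in WT and 5.21 in the mutant, and all 22 ratios were positive in both genotypes. Nr4a1, the factor that patrolling monocytes require, was at 721 and 590 CPM in WT and mutant IVM against 9.91 and 40.5 CPM in microglia, with an edgeR adjusted p of 0.0326. Spn, the sialoglycoprotein CD43, was at 146 and 123 CPM against 0.475 and 0.801 CPM, and Ear2, a ribonuclease, at 219 and 189 CPM against 0.324 and 1.17 CPM, both with an edgeR adjusted p of 0.0014. Of members short of the test, chosen after their values were seen, Pou2f2 was at 127 and 89.0 CPM against 55.2 and 35.6 CPM, and Itgax, the CD11c integrin chain, at 78.2 and 188 CPM against 10.5 and 6.87 CPM. By unadjusted p under 0.05, 16 members were higher and 0 lower, and DESeq2 called 14 and 0. Without WT IVM, 13 of the 22 were called higher, and without mutant IVM 17 were.

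Classical monocyte markers were also higher in IVM than in microglia, but at levels far from those of monocytes. Of 20 members tested, 8 were called higher and none lower, and 11 passed the size rule upward. Over all tested genes, 1.25% were called higher and 3.61% passed the size rule upward. The list's median log2 ratio was 4.33 in WT and 4.89 in the mutant. Not all members went the same way: 17 of the 20 had positive ratios in both genotypes. Ly6c2, which defines classical monocytes, was at 10.6 and 5.94 CPM in WT and mutant IVM and at 0.130 and 0.216 CPM in microglia, against 827 and 1882 CPM in monocytes; the IVM to microglia difference had an edgeR adjusted p of 0.017. Ccr2, the chemokine receptor for exit into tissue, was at 357 and 414 CPM in IVM, at 10.7 and 17.1 CPM in microglia and at 1489 and 2103 CPM in monocytes. Plac8 was at 143 and 74.1 CPM in IVM against 0.777 and 1.76 CPM in microglia, and at 2153 and 4347 CPM in monocytes. For each of these 3 genes the microglia libraries were lowest and the monocyte libraries highest. At an unadjusted p under 0.05, 17 members were higher and 0 lower, and DESeq2 called 15 and 0. Without WT IVM, 19 of the 20 were called higher, and without mutant IVM 13 were. Neutrophil markers moved the same way, with a median log2 ratio of 0.91 in WT and 5.37 in the mutant. Of 14, 9 had positive ratios in both genotypes, and their part in this difference was not tested.

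Adhesion genes showed both directions by the size rule. Of 34 tested, 9 were called higher in IVM and none lower, while 11 passed the size rule upward and 6 downward. Over all tested genes 1.25% were called higher, and 3.61% passed the size rule upward and 4.39% downward. Before adjustment, 12 were higher and 5 lower at p under 0.05, DESeq2 called 12 and 3, and 14 were called higher and none lower without WT IVM, against 13 higher and 7 lower without mutant IVM. Itga4, the alpha 4 integrin chain, was at 130 and 144 CPM in WT and mutant IVM against 1.38 and 1.63 CPM in microglia, with an edgeR adjusted p of 0.00259. Adgre5, the adhesion receptor CD97, was at 681 and 405 CPM against 0.734 and 1.63 CPM, with an edgeR adjusted p of 0.00158. Itgb7, chosen after its values were seen, was at 763 and 135 CPM against 1.43 and 4.87 CPM. Among members that lay lower in IVM without passing the test, also chosen after their values were seen, Itgb5 was at 139 and 100.3 CPM in IVM and at 1973 and 440 CPM in microglia, and F11r, a junction protein, at 70.9 and 409 CPM against 846 and 1353 CPM.

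Several C-type lectins were called higher. Of 21 tested members of the lectin and Siglec list, 6 were called higher and none lower, and 8 passed the size rule upward. Over all tested genes 1.25% were called higher and 3.61% passed the size rule upward. At an unadjusted p under 0.05, 9 were higher and 3 lower, and DESeq2 called 8 and 2; without WT IVM 9 were called higher, and without mutant IVM 10 were higher and 6 lower. Clec4e, which senses damaged cells and mycobacterial lipid, was at 59.2 and 279 CPM in WT and mutant IVM against 0.130 and 0.893 CPM in microglia, with an edgeR adjusted p of 0.0014. Clec4n, Dectin-2, was at 14.8 and 133 CPM against 0.108 and 1.66 CPM, with an edgeR adjusted p of 0.00301. Mgl2, a lectin of macrophages and dendritic cells, was at 85.6 and 232 CPM against 1.53 and 7.27 CPM, with an edgeR adjusted p of 0.00945. In the same list Siglech, a marker of microglia, was at 116 and 373 CPM in IVM against 1493 and 3535 CPM in microglia, with an edgeR adjusted p of 0.184.

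Among transcription factors of macrophage identity, 5 of 40 tested were called higher in IVM and none lower. Before adjustment, 6 were higher and 3 lower at p under 0.05, and DESeq2 called 5 and 2; without WT IVM 7 were called higher and none lower, and without mutant IVM 7 higher and 10 lower. These shares stand beside the 1.25% called higher over all genes, and beside 11.4% higher and 19.2% lower without mutant IVM. Nfe2 was at 83.2 and 85.1 CPM in WT and mutant IVM against 0.410 and 0.801 CPM in microglia, with an edgeR adjusted p of 0.00158. Bhlhe40 was at 422 and 107 CPM against 0.367 and 1.72 CPM. Ikzf3, a lymphoid zinc finger factor, was at 163 and 23.2 CPM against 0.0216 and 0.0308 CPM, and Runx3 at 143 and 13 CPM against 0.410 and 1.26 CPM. Both Ikzf3 and Runx3 are used by T and NK cells, and both were higher in the WT IVM library, where those markers were present; the part of such cells in the 2 values was not tested. On the microglia side, Sall1 was at 386 and 215 CPM in WT and mutant microglia and at 30.9 and 89.3 CPM in IVM, with an edgeR adjusted p of 0.30.

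A few lipid, coagulation and complement genes passed the test. Called higher were 3 of 23 lipid, 3 of 20 coagulation and 2 of 20 complement genes tested, and none was called lower. Over all tested genes 1.25% were called higher. Cd36, a scavenger receptor for fatty acids, was at 236 and 431 CPM in WT and mutant IVM against 2.14 and 8.50 CPM in microglia, with an edgeR adjusted p of 0.0033, and was 1 of 2 called among 21 scavenger receptors tested. Pltp, phospholipid transfer protein, was at 107 and 383 CPM against 1.51 and 14.9 CPM; it and Fabp4 were among the 3 of 23 lipid genes called. Thbd, thrombomodulin, was at 35.5 and 26.3 CPM against 0.0648 and 0.0616 CPM, and F10, coagulation factor X, at 11.2 and 30.6 CPM against 0.0216 and 0 CPM. Cfp, properdin of the alternative complement pathway, was at 69.4 and 366 CPM against 1.38 and 5.94 CPM, whereas the C1q chains, chosen after their values were seen, ran the other way: C1qa was at 278 and 1107 CPM in IVM against 1654 and 4995 CPM in microglia, with an edgeR adjusted p of 0.758. In the interferon list, Oas3 and Ifi207 were the 2 of 29 members called, and 10 passed the size rule upward with none downward. The size rule was passed upward by 3.61% of all tested genes and downward by 4.39%. Without WT IVM, 6 scavenger, 4 lipid, 9 coagulation, 5 complement and 8 interferon genes were called higher, and 3 complement genes and no gene of the other 4 lists lower. Without mutant IVM both directions were called in each list, with 3 scavenger receptors higher and 9 lower, 5 lipid genes higher and 7 lower, 9 coagulation genes higher and 6 lower, 4 complement genes higher and 6 lower, and 9 interferon genes higher and 7 lower.

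Genes of antigen presentation through MHC class II were mixed, and none passed the test. Of 14 tested, edgeR called 0, 6 had positive ratios and 4 negative ratios in both genotypes, and the median log2 ratio was 0.38 in WT and 0.90 in the mutant. By the size rule 5 passed upward and 1, the co-stimulatory ligand Cd86, downward, against 3.61% and 4.39% of all tested genes. At an unadjusted p under 0.05, 5 were higher and 1 lower, and DESeq2 called 5 higher. Without WT IVM 3 were called higher and 1 lower, and without mutant IVM 6 higher and 2 lower. Cd86 was at 118 and 233 CPM in WT and mutant IVM against 334 and 804 CPM in microglia, with an edgeR adjusted p of 0.686. Cd74, the invariant chain, chosen after its values were seen, was at 4945 and 8925 CPM in WT and mutant IVM against 215 and 920 CPM in microglia, with an edgeR adjusted p of 0.369. H2-Ab1, likewise chosen, was at 3569 and 5036 CPM against 201 and 932 CPM, with an edgeR adjusted p of 0.406. Both IVM libraries lay above both microglia libraries for these 2 genes. Dendritic cell markers moved the same way as Cd74 and H2-Ab1 (533 and 453 CPM in IVM against 34.1 and 57.9 CPM), and their part in this difference was not tested.

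The genes called lower in IVM were few. Gpr84, a receptor for medium-chain fatty acids at chr15:103308235-103310612 on the minus strand, was at 5.67 and 53.1 CPM in WT and mutant IVM against 132 and 924 CPM in microglia. It was 23.2-fold (20.2 to 26.9) and 17.4-fold (16.9 to 17.9) higher in microglia, with an edgeR adjusted p of 0.0168. Within each genotype microglia were higher, and the WT IVM value lay lowest. Upk1b, a tetraspanin, was at 5.92 and 33.0 CPM in IVM against 211 and 331 CPM, with an edgeR adjusted p of 0.0377. Ecscr, a surface protein first described in endothelium, was at 15.7 and 49.4 CPM against 225 and 588 CPM, and Tmem100, a membrane protein, at 5.78 and 27.0 CPM against 67.5 and 249 CPM; their edgeR adjusted p were 0.0383 and 0.0498. Gem, a small GTPase, was at 5.36 and 9.19 CPM against 42.9 and 344 CPM, with an edgeR adjusted p of 0.0384. All 5 were lower in both IVM libraries than in either microglia library, which describes genes chosen for low ratios in these same libraries. Gdf15, a stress-induced growth factor, was also called lower (edgeR adjusted p 0.039), at 0 and 1.12 CPM in IVM against 3.99 and 88.5 CPM, and was below the size rule's level in WT microglia. The seventh gene called lower is a cDNA clone without a gene name.

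Canonical microglia markers were lower in IVM in both genotypes, although few passed the test. Of 20 tested, 2 were called lower and none higher, against 0.0411% of all tested genes called lower, while 18 were at least 2-fold lower in both genotypes; the median log2 ratio was -3.57 in WT and -3.01 in the mutant. P2ry12, the ADP receptor, was at 289 and 1122 CPM in WT and mutant IVM against 5702 and 10413 CPM in microglia, with an edgeR adjusted p of 0.356. Tmem119 was at 285 and 954 CPM against 3311 and 6133 CPM (edgeR adjusted p 0.394). For both the groups did not overlap. The exception to the direction was Csf1r, at 10100 CPM in WT microglia against 1035 CPM in WT IVM, but at 3194 CPM in mutant microglia against 5001 CPM in mutant IVM. At an unadjusted p under 0.05, 15 were lower and 0 higher, and DESeq2 called 14 and 0. Over all tested genes, 4.39% were at least 2-fold lower in both genotypes by the size rule.

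Lesser known microglia genes and lysosomal genes lay on the same side. Of 30 lesser known microglia genes, none was called by edgeR in either direction (15 lower at an unadjusted p under 0.05, and 12 by DESeq2), 15 were at least 2-fold lower in both genotypes, and the median log2 ratio was -3.86 in WT and -1.46 in the mutant. Of 29 lysosomal proteases and hydrolases, none was called by edgeR (4 lower and 1 higher at an unadjusted p under 0.05, and 2 and 1 by DESeq2), 13 were at least 2-fold lower in both genotypes and 25 had negative ratios in both. Cathepsin D (Ctsd), chosen after its values were seen, was at 1592 and 4229 CPM in WT and mutant IVM against 12618 and 14036 CPM in microglia, with an edgeR adjusted p of 0.899. By the same 2-fold rule, 1 lysosomal gene and no lesser known microglia gene was higher in both genotypes. Over all tested genes, 4.39% were lower by that rule and 3.61% higher.

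**Figure D3:**
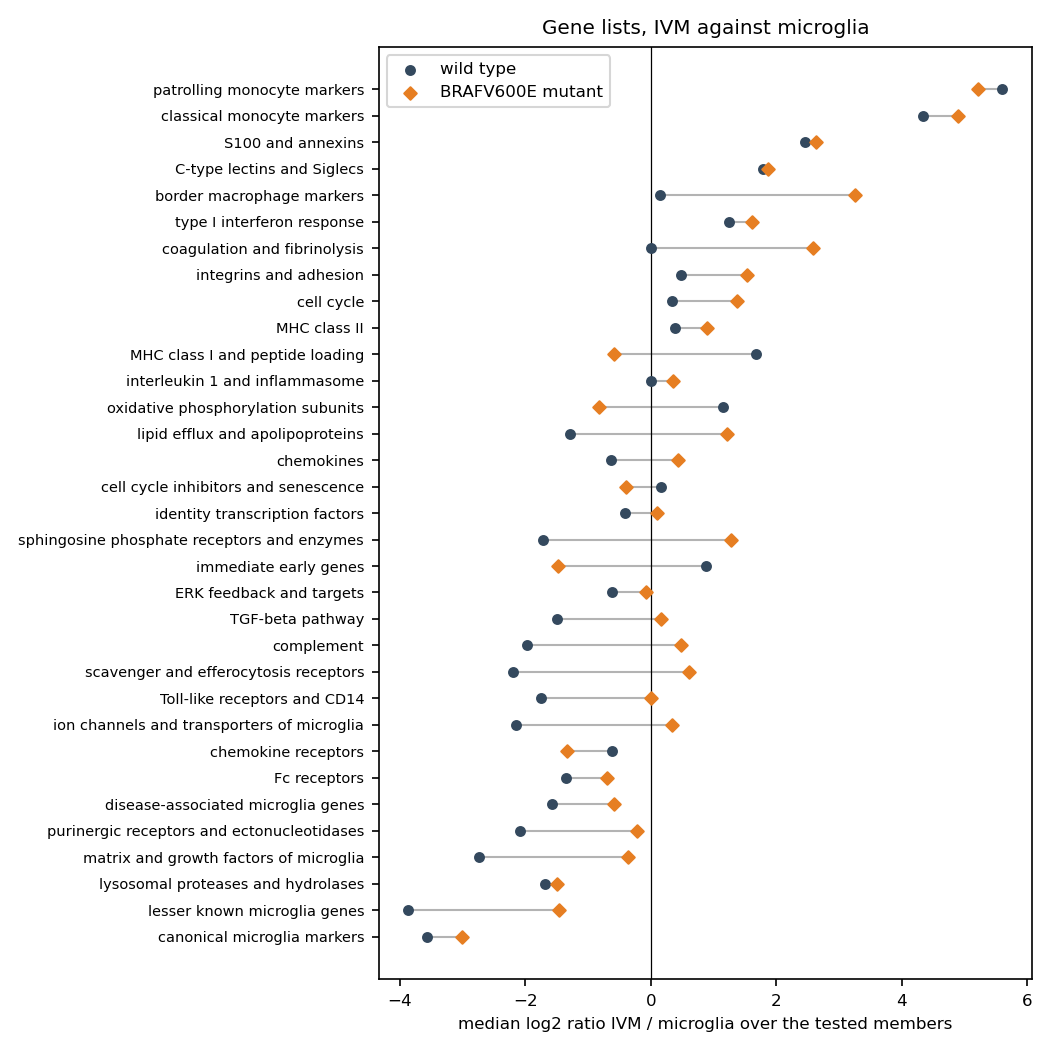
Median log2 ratio of IVM to microglia over the tested members of each gene list, in wild-type (circles) and mutant (diamonds) mice; the grey line joins the 2 genotypes. Patrolling monocyte markers lie at 5.60 and 5.21, canonical microglia markers at -3.57 and -3.01, and several lists have medians of opposite sign.

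Microglia genes that monocytes hardly express were still detected in IVM. For 28 genes of the microglia lists whose monocyte level was at most 5% of the microglia level, the level in IVM was a median of 7.30% of that in microglia in WT (range 0 to 38.3%) and 15.4% in the mutant (5.75 to 156%). P2ry12 stood at 11.4 and 21.7 CPM in WT and mutant monocytes, well below its 289 and 1122 CPM in IVM. Whether microglia RNA in the IVM libraries or expression by IVM gives these levels was not tested.

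**Figure D4:**
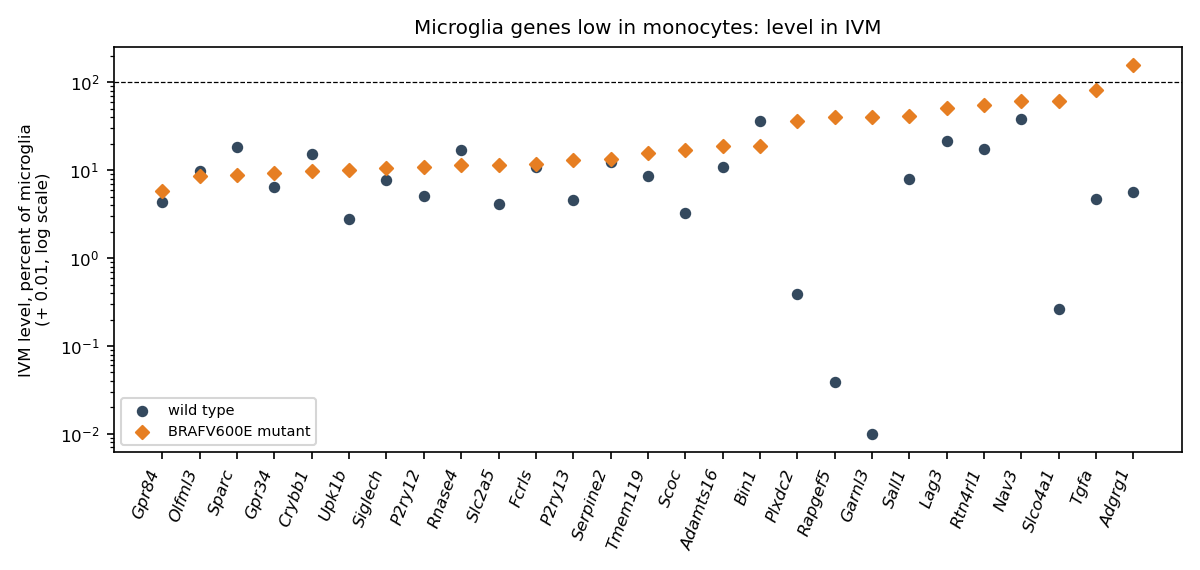
Level in IVM as a percent of that in microglia (+ 0.01, log axis) for 27 of the 28 microglia genes low in monocytes, in wild-type (circles) and mutant (diamonds) mice; the dashed line marks equal levels. Most genes lie near 10%, with a median of 7.30% over all 28 in wild type, and the mutant values spread upward to 156% for Adgrg1.

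Most genes higher in IVM than in microglia were also higher in monocytes than in microglia. Of the 180, monocytes were at least 2-fold above microglia in both genotypes for 176, and 168 were called lower in microglia than in monocytes; over all tested genes 3.23% were called lower in microglia and 1.76% higher. Since the 180 were chosen for low values in these same microglia libraries, the count describes them and is not read against that share. Of the 615 genes higher by the size rule, monocytes were at least 2-fold above microglia in both genotypes for 418, and 247 were called. Monocytes lay within 2-fold of IVM in both genotypes for 41 of the 180, at least 2-fold above IVM for 31 and at least 2-fold below IVM for 23. Between IVM and monocytes, 0.270% of tested genes were called higher in IVM and 0.241% lower; of the 180, 2 were called higher in IVM and 1 lower. These comparisons share the IVM and microglia libraries with the main one, so their counts are not independent of it. The mutant monocyte library also held neutrophil markers at 57627 CPM, which limits it as a reference.

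**Figure D5:**
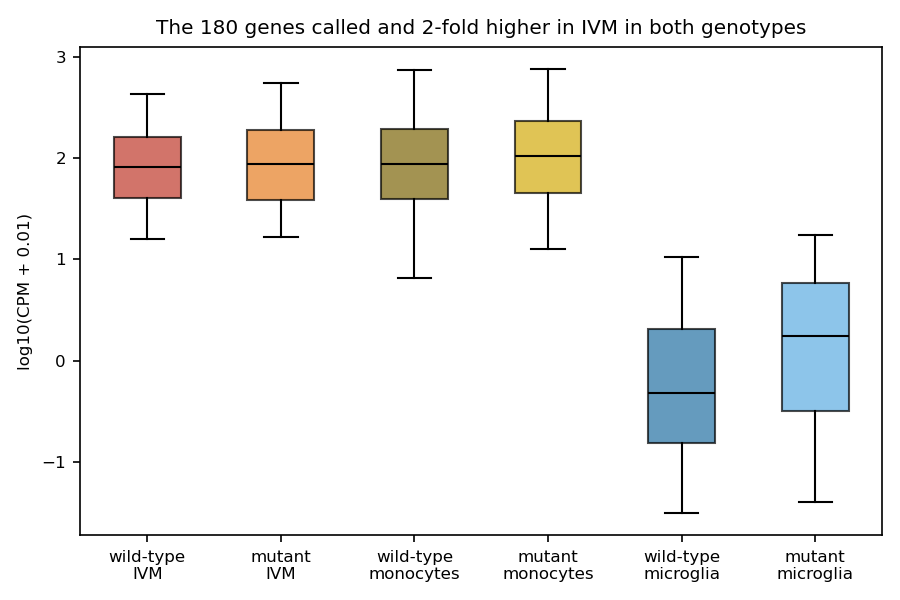
log10(CPM + 0.01) of the 180 genes called and 2-fold higher in IVM in both genotypes, in each of the 6 libraries; boxes give the quartiles and median over genes, whiskers the 5th and 95th percentiles. Median levels were 81.1 and 86.9 CPM in IVM and 88.0 and 104 CPM in monocytes, against 0.475 and 1.74 CPM in microglia.

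The 2 genes called above both other cell types were Mgl2 and Cd300e. Mgl2 was at 1.91 and 1.68 CPM in WT and mutant monocytes, so its 85.6 and 232 CPM in IVM were higher than in either comparison group, with an edgeR adjusted p of 0.0101 against monocytes. Cd300e was at 1.60 and 16.3 CPM in monocytes, with an edgeR adjusted p of 0.00816 against monocytes. A further 21 genes were 2-fold above both in each genotype without being called against monocytes. They included Treml4, S1pr5, Itgal, Cd36, Cd163, Pltp and Bcl2 and, chosen after their values were seen, Pparg, a lipid-sensing nuclear receptor, and Cyfip2. Pparg was at 61.7 and 89.9 CPM in WT and mutant IVM, at 6.50 and 11.2 CPM in monocytes and at 0.0648 and 2.03 CPM in microglia. S1pr5 was at 43.5 and 4.69 CPM in monocytes, and the difference from IVM had an edgeR adjusted p of 0.263. For the 6 genes called and 2-fold lower in IVM, monocytes lay at least 2-fold below IVM in both genotypes. All 6 were called higher in microglia than in monocytes, against 1.76% of all tested genes. Since the 6 were chosen for high values in these same microglia libraries, the count describes them and is not read against that share.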

How the data were processed

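RNA of sorted mouse cells was sequenced. The authors deposited raw counts per gene and, in a second table, TPM, a unit corrected for gene length and library total. Per the submitters' processing notes, bcl2fastq 2.20, Trimmomatic 0.37, STAR 2.5.2b and Subread 1.5.2 were used with the mouse build mm10; which annotation was counted, and whether strand was used, is not given in the sources used here, so overlapping and antisense genes are uncertain. The counts were the input here, and the deposited TPM served only as an alternative. Of 49315 lines, 176 without a gene name (0.00507% to 0.0166% of a library's counts) and 26 with a date in place of a symbol (0.0618% to 0.237%) were left out; 94 symbols on more than 1 line were summed.

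IVM and microglia were compared with edgeR 4.0.16 (R 4.3.3) on all 6 libraries: TMM factors, filterByExpr by cell type, genotype as a block, quasi-likelihood F test, 2 residual degrees of freedom, Benjamini-Hochberg adjustment at 0.05. A difference between genotypes that varies by cell type counts as spread. Ratios within a genotype used CPM with a prior count of 2; the size rule asked for 2-fold in both genotypes and for 10 CPM in each library of the cell type that was higher. Folds carry exact binomial 95% intervals, and a library with 0 counts was set to a floor of 3 counts; both cover counting error only, since PCR reads without molecular identifiers are not independent molecules. The procedure was tested on simulated data. Alternatives used limma 3.58.1 and DESeq2 1.42.0.

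The genes named were up to 15 per direction by the smaller absolute ratio among genes called and past the size rule, without predicted genes, clones, pseudogenes and ribosomal, mitochondrial or antigen receptor genes; up to 6 called members of each list at 10 CPM; and Braf and a few cell type markers in any case. Most genes outside this rule are marked as chosen after seeing their values. Cd3e, Cd8a, Csf1r, Siglech, Cd86, Fos, Atf3 and Adgrg1 also lie outside it and are to be read the same way. The comparison, members and lists were chosen with earlier results of these data known. A few genes are not reported here, and the figures leave them out; counts and medians include them.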

Additional observations from a re-analysis of the deposited data

Results flagged for a closer look

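In 13 of 43 gene lists the median log2 ratio of IVM to microglia had opposite signs in the 2 genotypes, and in 6 of these both medians lay at least 0.5 from 0; with 1 library per cell type and genotype, the difference between genotypes was not tested. These 6 are given here. For sphingosine phosphate receptors and enzymes the median was -1.72 in WT and 1.28 in the mutant. Sgpl1, the lyase that degrades sphingosine 1-phosphate, was at 2.40 CPM in WT IVM against 500 CPM in WT microglia, and at 271 CPM in mutant IVM against 112 CPM in mutant microglia. For scavenger and efferocytosis receptors the medians were -2.2 and 0.61. Axl, a receptor for dying cells, was at 0.195 CPM in WT IVM and 395 CPM in mutant IVM, and Mrc1, the mannose receptor, at 1.12 and 179 CPM. For lipid efflux and apolipoproteins the medians were -1.28 and 1.22, with Lpl, lipoprotein lipase, at 0.307 CPM in WT IVM and 118 CPM in mutant IVM. The single genes here were chosen after their values were seen.

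The other 3 lists ran the opposite way. For MHC class I and peptide loading the medians were 1.68 in WT and -0.58 in the mutant; scaling by library size alone gave 0.12 in the mutant and TPM gave 0.33, so the sign there depends on the scaling. For oxidative phosphorylation subunits they were 1.15 and -0.83, and TPM gave 0.07 in the mutant. For immediate early genes they were 0.88 and -1.47. Fos was at 1034 CPM in WT and 1152 CPM in mutant IVM, and at 558 CPM in WT and 12509 CPM in mutant microglia, and Atf3 at 287, 131, 80.2 and 5432 CPM in the same order. Nr4a1, in the same list, was higher in both IVM libraries. The WT IVM library held T and NK markers at 6431 CPM and the fewest detected genes; the part of either in these differences was not tested.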

How the results depend on the processing

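Among genes named by the rule, the direction was kept in each alternative run except for Braf, whose log2 ratio ran from -0.31 to 1.75 with 1 library left out. Genes chosen after their values were seen reversed more often with 1 library left out: Csf1r ran from -2.98 to 0.25, Cd8a from -0.79 to 17.08, Sgpl1 from -7.27 to 0.64, Axl from -6.49 to 3.87, Mrc1 from -1.81 to 4.21, Lpl from -5.47 to 1.92, Fos from -3.77 to 1.2, Atf3 from -5.54 to 1.88, Cxcr6 from -2.09 to 11.01, F13a1 from -1.11 to 7.59 and Csf3r from -2.16 to 0.1. Axl was at -0.97 with the 4 libraries only, and Lpl at 0.27 with library size alone, 1.59 with no replicate block and 0.43 with limma. The number of genes called higher (213) was 90 with library size scaling alone, 447 without a filter on low counts, 63 at a mean of at least 10 CPM, 115 with no replicate block (no genotype term), 709 with DESeq2's Wald test and 85 with limma on log2(TPM + 1). Leaving out 1 library gave 149 to 2144: 643 without WT IVM and 2144 without mutant IVM. The number called lower (7) was 4 with DESeq2 size factors, 0 with library size alone, 71 without the filter, 0 at 10 CPM, 24 with the 4 libraries only, 0 with no replicate block, 186 with DESeq2's Wald test and 0 with limma; leaving out 1 library gave 9 to 3601 (73 without WT IVM, 3601 without mutant IVM, 85 without mutant microglia). The genes called and 2-fold the same way (186) numbered 87, 309, 62, 103, 443 and 85 with library size alone, no filter, 10 CPM, no replicate block, DESeq2 and limma, and 120 to 934 with 1 library left out (120 without WT microglia, 334 without WT IVM, 934 without mutant IVM). By the size rule, higher genes (615) became 327 at 4-fold and 973 at 1 CPM; lower genes (747) became 353 with library size alone, 274 with TPM, 170 at 4-fold and 1470 at 1 CPM. The causes were not tested. A left-out library leaves its cell type with 1 library, which is then assumed to vary like the others.

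Of the 213 genes, 213 were shared with DESeq2's Wald calls, 209 with the calls without WT IVM, 115 with those with no replicate block and 76 with limma. Library size alone moved the median of all genes in the mutant from -0.17 to 0.48, and no gene was then called lower, so the count of lower genes depends on the scaling. Ratios of genes near 0 in microglia rest on a few counts there.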

Other observations

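Cxcr6, a chemokine receptor of resident T cells, chosen after its values were seen, was at 912 CPM in WT IVM, 0.202 CPM in mutant IVM, and 0.367 and 1.02 CPM in WT and mutant microglia. F13a1, a subunit of coagulation factor XIII, was likewise chosen. It was at 0.558 CPM in WT IVM and 207 CPM in mutant IVM, against 1.14 CPM in each microglia library. Which cells gave these levels was not tested. Both genes separated the 2 IVM libraries and neither was called between IVM and microglia, with edgeR adjusted p of 0.383 and 0.458.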
